A study of Mus musculus with 6 samples.

Results

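HOX genes encode homeodomain transcription factors, and the set described here held every gene symbol made of Hox, a cluster letter from a to d and a number. By this rule 34 of the 20327 genes listed in the tag-count tables were members, of which 10 belonged to cluster A, 8 to cluster B, 8 to cluster C and 8 to cluster D. The tables held 6 libraries of sorted stromal cells from the inflamed mouse colon, 3 labelled EGFP-Positive and 3 labelled EGFP-Negative. Both groups came from *Il11-Egfp* reporter mice on a C57BL/6 background, male and aged 9 to 15 weeks, that drank 1.5% dextran sulfate sodium (DSS) for 5 days and then plain water until the colon was taken on day 7. In these mice a bacterial artificial chromosome transgene drives EGFP from the *Il11* promoter, so EGFP reports activity of a transgene and not IL-11 protein. EGFP-Positive cells are called IL-11+ and EGFP-Negative cells IL-11- below. Cells were sorted after removal of those carrying Ter119, CD45, CD31 or EpCAM. Blood, immune, endothelial and epithelial cells were thus gated out, but other stromal cell types were not. The question was whether the positional HOX pattern of the 2 populations differed, and untreated mice were not part of the comparison. The total per library ranged from 1022851 to 1169817 tags, and 3 tags corresponded to between 2.40 and 3.12 CPM, the unit used below, in which tags are scaled by library total and TMM factor.

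HOX genes lie in clusters on separate chromosomes, and their order along a cluster follows the order in which they are used along the body axis. Genes that occupy the same place in different clusters form a paralogue group, low-numbered groups acting toward the head and high-numbered groups toward the tail. Adult fibroblasts retain a HOX pattern of the body site they come from, and in the gut posterior HOX genes mark the hindgut mesenchyme from which the colon wall forms.

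The sort was checked first. *Il11* gave 28, 51 and 89 tags in the 3 IL-11- libraries and 1357, 732 and 2658 tags in the 3 IL-11+ libraries. Every IL-11+ library lay above every IL-11- library, and the log2 fold change was 4.98 (SE 0.393, adjusted p = 1.01e-07 by edgeR's quasi-likelihood test). All 9 fibroblast markers were detected in both groups, with *Dcn*, a matrix proteoglycan, the most abundant. Their summed level was 22420 ± 1413 CPM in IL-11- cells and 34843 ± 6003 CPM in IL-11+ cells (mean ± SD, n = 3 here and below). This list did not move as 1 unit: at an adjusted p under 0.05 (edgeR) 4 markers were higher, 2 of them by more than 2-fold, and 1 was lower by less than 2-fold. Of all 9334 genes tested, 638 were higher and 812 lower at that adjusted p.

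Markers of other stromal cell types moved with the sort. All 8 smooth muscle markers fell in IL-11+ cells, and their summed level was 2611, 3238 and 4023 CPM in the IL-11- libraries and 111, 174 and 359 CPM in the IL-11+ libraries, with *Myh11* the most abundant. All 3 markers of interstitial cells of Cajal, the gut pacemaker cells, also fell, with sums of 265, 164 and 252 CPM against 20.8, 19.9 and 49.6 CPM and with *Ano1* the most abundant. *Kit*, which defines these cells, was at 0 tags in IL-11+ libraries 1 and 2 and at 7 tags in library 3. IL-11+ library 3 thus held the highest residual of both lists within its group.

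Of the 7 pericyte markers 4 were called lower and none higher, and their sum was 2303 ± 287 CPM in IL-11- cells and 910 ± 136 CPM in IL-11+ cells, with *Rgs5* the most abundant at 1609 of the 2303 CPM. Of the other 3 pericyte markers, 2 were higher at an adjusted p under 0.05 (edgeR) but by less than 2-fold, so this list did not move as 1 unit. Both tested glial markers of 6 fell, with sums of 116 ± 22.8 and 14.9 ± 3.29 CPM, and *Sox10*, *S100b* and *Erbb3* were at 0 tags in all IL-11+ libraries. No marker of enteric neurons, epithelium, endothelium, immune cells, mesothelium or red cells reached the filter for testing. The summed level was 9.92 ± 6.58 against 4.6 ± 1.41 CPM for 5 enteric neuron markers (*Tubb3* the most abundant), and 5.87 ± 5.42 against 3.25 ± 1.32 CPM for 7 epithelial markers (*Krt8*). It was 6.03 ± 4.47 against 0.624 ± 1.08 CPM for 4 endothelial markers (*Emcn*), and 15.7 ± 2.56 against 11.1 ± 6.65 CPM for 6 immune markers (*Cd68*). Mesothelial markers summed to 11 ± 5.61 against 0.624 ± 1.08 CPM over 4 genes (*Wt1*). The 4 globin genes summed to 88.5, 0 and 297 CPM in the IL-11- libraries and to 17.7, 1.99 and 18.7 CPM in the IL-11+ libraries, with *Hbb-bs* the most abundant. Beside fibroblast markers, the IL-11- libraries thus held higher levels of smooth muscle, glial and interstitial cell markers and of 4 of the 7 pericyte markers. The part of these cell types in any HOX difference below was not tested. In such bulk libraries, fewer cells of a type and less RNA per cell cannot be told apart.

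HOX genes as a whole were expressed at a lower summed level in IL-11+ cells. The 34 genes together gave 317, 292 and 282 tags in the IL-11- libraries and 171, 191 and 217 tags in the IL-11+ libraries. The groups did not overlap, and the summed level was 264 ± 35 CPM in IL-11- cells and 190 ± 12.5 CPM in IL-11+ cells. Sums over members were described without a test. Of the 34 members, 27 had a lower mean CPM in IL-11+ cells, where 53.4% of all 20327 genes did.

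The clusters did not share this difference evenly. Cluster A, on chromosome 6, summed to 89.7 ± 13.5 CPM in IL-11- cells and 103 ± 18.6 CPM in IL-11+ cells, and its groups overlapped. Cluster B, on chromosome 11, summed to 66.2, 65.4 and 41.7 CPM against 14.6, 19.9 and 33.7 CPM. Cluster C, on chromosome 15, summed to 41.0, 27.6 and 18.4 CPM against 6.24, 14.0 and 9.36 CPM. Neither cluster B nor cluster C overlapped between groups, and the log2 ratio of mean sums was −1.35 for B and −1.56 for C. Cluster D, on chromosome 2, summed to 94.1, 75.5 and 91.4 CPM against 42.7, 43.9 and 78.6 CPM, so that IL-11+ library 3 reached into the IL-11- range. Within each pair of same-numbered libraries the cluster A sum was higher and the cluster D sum lower in IL-11+ cells. Without *Hoxd13*, a gene singled out after its values were seen, the cluster D sum was 74.4 ± 13 against 38.1 ± 5.98 CPM and the groups did not overlap. Cluster A without its 2 most abundant genes, *Hoxa10* and *Hoxa11*, summed to 30.9 ± 1.08 against 18.2 ± 1.60 CPM, again a sum defined after the values were seen.

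**Figure D1:**
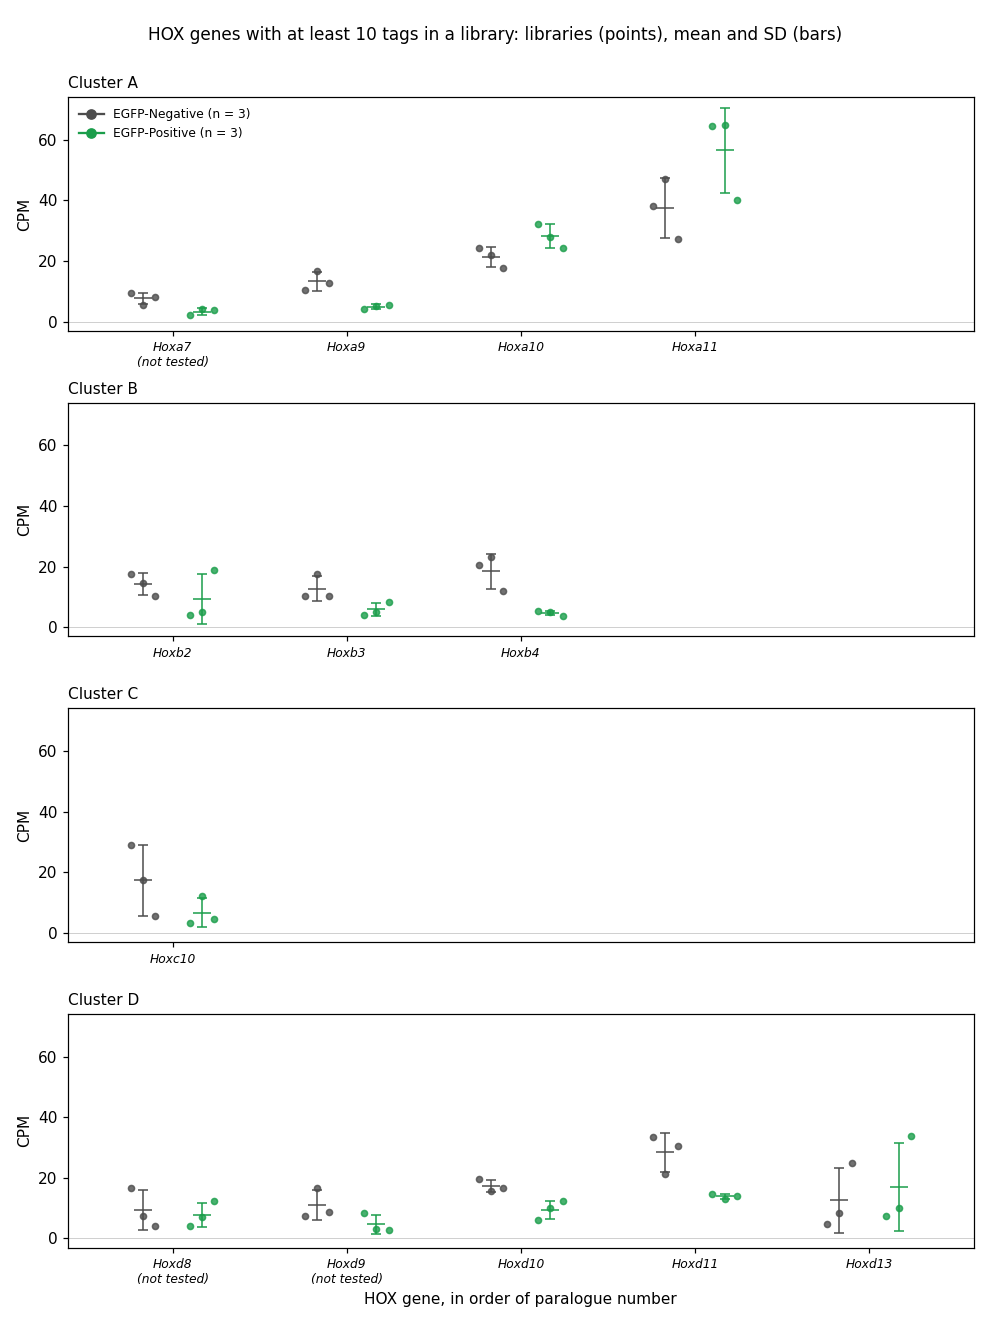
Level in CPM (vertical axis) of the 13 HOX genes that reached 10 tags in any library, in the 3 EGFP-Negative (IL-11-, grey) and 3 EGFP-Positive (IL-11+, green) libraries, by cluster and paralogue number; points are libraries and bars are mean and SD. *Hoxa11* is the highest gene in both groups at 37.5 and 56.5 CPM, the cluster B and cluster C genes have lower means in green, and *Hoxd13* is highest in library 3 of each group.

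The summed difference also varied along the paralogue groups. Groups 1 to 4 summed to 73.6, 67.2 and 42.5 CPM in the IL-11- libraries and to 15.6, 21.9 and 38.4 CPM in the IL-11+ libraries. Groups 5 to 8 summed to 51.3, 31.3 and 32.9 CPM against 14.6, 16.9 and 22.5 CPM. The posterior groups 9 to 13 summed to 171, 170 and 151 CPM against 148, 152 and 142 CPM. The anterior and middle sums did not overlap between groups, while the posterior sums did, with the lowest IL-11- library within the IL-11+ range, although within each pair of same-numbered libraries the IL-11+ sum was the lower. Posterior genes thus made up 57.7, 63.4 and 66.7% of all HOX tags in the IL-11- libraries and 83.0, 79.6 and 70.0% in the IL-11+ libraries. This share is taken within a library and does not depend on scaling between libraries. IL-11+ library 3 had the share nearest to IL-11- cells. Posterior genes did not move as 1 unit. *Hoxa10*, *Hoxa11*, *Hoxa13*, *Hoxd12* and *Hoxd13* had a higher mean CPM in IL-11+ cells. *Hoxa9*, *Hoxc9*, *Hoxc10*, *Hoxc11*, *Hoxc13*, *Hoxd9*, *Hoxd10* and *Hoxd11* had a lower one. The rise in share rests in part on *Hoxa10* and *Hoxa11*, with 72 and 126 tags over the IL-11- libraries and 85 and 170 over the IL-11+ libraries. Within single clusters many of these sums held few tags, so whether clusters differ in this order cannot be read from them. Log2 ratios of sums over groups 1 to 4, 5 to 8 and 9 to 13 were −0.56, −0.91 and 0.34 in cluster A. They were −1.16, −1.92 and −1.51 in cluster C and −2.72, −0.27 and −0.59 in cluster D. Cluster B, without members in groups 9 to 13, was at −1.19 and −2.27. Groups 1 to 4 of cluster C are *Hoxc4* alone, and groups 5 to 8 of cluster D are *Hoxd8* alone. Groups 1 to 4 gave 6, 3 and 4 tags against 1, 4 and 3 tags in cluster A. In cluster D they gave 13, 7 and 8 tags against 0, 1 and 3 tags. Both cluster B sums, groups 5 to 8 of clusters A and C and groups 1 to 4 of cluster D did not overlap, and the rest did. The posterior sum was thus higher only in cluster A, where the groups overlapped.

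Single paralogue groups did not all follow the order from anterior to posterior. Group 6 had the largest log2 ratio of mean sums, −2.50, from 9.36 ± 5.23 to 1.65 ± 0.575 CPM. Group 4 had a log2 ratio of mean sums of −1.99, from 29.8, 29.5 and 15.2 CPM to 6.24, 5.98 and 6.55 CPM. Group 9, although posterior, had a log2 ratio of −1.40, from 20.5, 35.9 and 22.4 CPM to 12.5, 7.97 and 9.36 CPM. None of these overlapped between the populations, nor did groups 3, 5 and 7. Group 10 summed to 56.0 ± 16.3 against 44.2 ± 4.88 CPM and group 11 to 66.7 ± 6.55 against 70.7 ± 13.4 CPM, both with overlap. Group 13 summed to 14.9 ± 12.3 against 21.3 ± 12.4 CPM, with overlap, while the IL-11+ library was the higher within each pair of same-numbered libraries, at 5.59 and 12.5, 10.1 and 15.9, and 28.9 and 35.5 CPM. Groups 1, 2 and 8, with log2 ratios of −1.04, −0.74 and −0.26, overlapped as well, and group 12 consisted of *Hoxd12* with at most 2 tags in a library.

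Of the 34 members, 10 passed the filter for testing (at least 10 tags in at least 3 of 6 libraries). Among them 3 were called lower in IL-11+ cells and 0 higher by edgeR, at an adjusted p under 0.05 over all 9334 genes tested and a fold over 2. For comparison, 595 of the 9334 genes (6.37%) were called lower and 321 (3.44%) higher. At an unadjusted p under 0.05, 6 HOX genes were lower and 1 higher, where 1355 of the 9334 genes were lower and 1135 higher. DESeq2 called 1 of the 10, which was *Hoxb4*, lower, and 767 genes in all. The median log2 fold change of the 10 was −0.95, against −0.01 over all genes tested. *Hoxa9*, *Hoxb3* and *Hoxb4* passed the filter through the IL-11- libraries alone and so could only have been lower, which is why these counts and this median are not a measure of the family. The median of the other 7 was −0.58.

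*Hoxb4*, an anterior gene of cluster B at chr11:96318267-96321638 (plus strand, GRCm38) known for its role in expanding blood stem cells, gave 22, 25 and 15 tags in the IL-11- libraries and 5, 5 and 4 tags in the IL-11+ libraries. The groups did not overlap and every IL-11+ library was close to 5 tags. The mean level was 18.5 ± 5.76 against 4.64 ± 0.788 CPM and the log2 fold change −1.97 (SE 0.434, adjusted p = 0.00353, edgeR). It was called without each of the 6 libraries in turn on the same genes, with adjusted p from 0.00183 to 0.0266 by edgeR. That set of genes was fixed with all 6 libraries, and with genes filtered again *Hoxb4* was not tested without any 1 of the IL-11- libraries. With the replicate number as a block, *Hoxb4* was called at −1.96 (adjusted p = 0.000871, edgeR). The filter let it in through the IL-11- libraries alone, but it was also called lower without a filter (−1.93, adjusted p = 0.000688, edgeR).

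*Hoxa9*, which acts in blood progenitors and, in development, along the lower trunk, lies at chr6:52223100-52231089 (minus strand). It gave 11, 18 and 16 tags in the IL-11- libraries and 4, 5 and 6 tags in the IL-11+ libraries. All 3 IL-11+ libraries were below all IL-11- libraries, at 13.2 ± 3.18 against 4.92 ± 0.728 CPM, and the log2 fold change was −1.41 (SE 0.435, adjusted p = 0.0340, edgeR). On the same genes the call was kept without IL-11- library 1 (adjusted p = 0.0455, edgeR) and lost without IL-11- library 2 (0.142) or 3 (0.0668) and without IL-11+ library 1 (0.104), 2 (0.0868) or 3 (0.0574). With genes filtered again it was kept without IL-11+ library 3 (−1.51, adjusted p = 0.0479, edgeR). The call was also kept with the replicate number as a block (−1.40, adjusted p = 0.0336, edgeR). DESeq2 gave an adjusted p of 0.128. *Hoxa9* passed the filter through the IL-11- libraries alone and so could only have been lower, and without a filter it was not called (adjusted p = 0.0608, edgeR).

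*Hoxd11*, which with *Hoxa11* patterns the forearm and kidney, lies at chr2:74679557-74687016 (plus strand). It gave 36, 23 and 38 tags in the IL-11- libraries and 14, 13 and 15 tags in the IL-11+ libraries. The IL-11+ libraries were nearly equal and all below the IL-11- libraries, at 28.4 ± 6.44 against 13.9 ± 0.819 CPM, and the log2 fold change was −1.04 (SE 0.305, adjusted p = 0.0251, edgeR). This is close to the 2-fold threshold: without IL-11- library 2 the call was kept (−1.20, adjusted p = 0.0218, edgeR), and it was lost without IL-11- library 1 (−0.91, 0.105) or 3 (−0.98, 0.0693) and without IL-11+ library 1 (−1.07, 0.0562), 2 (−0.99, 0.0870) or 3 (−1.05, 0.0572). DESeq2 gave an adjusted p of 0.0870, and without a filter edgeR put the gene just short of 2-fold (adjusted p = 0.0319).

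**Figure D2:**
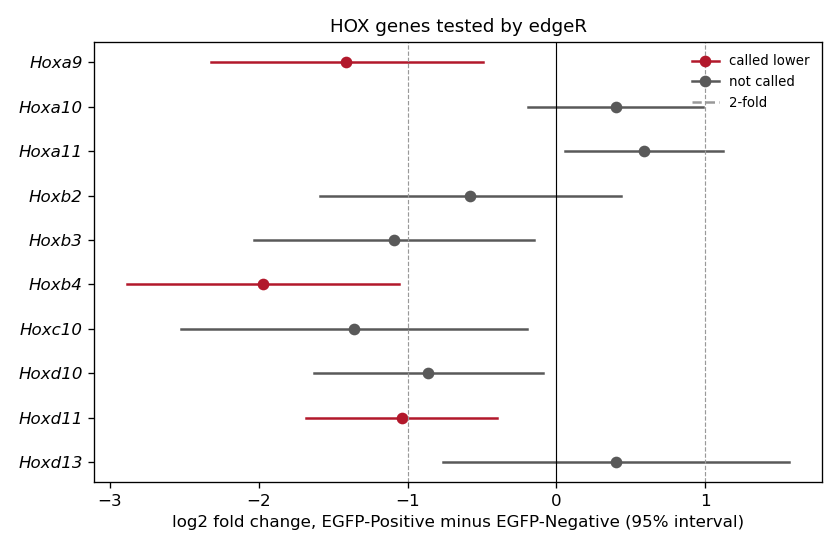
Log2 fold change (horizontal axis, EGFP-Positive minus EGFP-Negative) of the 10 HOX genes tested, with 95% intervals; red marks the 3 genes called lower and dashed lines mark a 2-fold difference. *Hoxb4* is the lowest at −1.97, and *Hoxa11* is the highest at 0.59 and was not called.

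The other tested member of paralogue group 11, *Hoxa11* (chr6:52242106-52245810, minus strand), did not move with *Hoxd11*. It gave 41, 51 and 34 tags in the IL-11- libraries and 62, 65 and 43 tags in the IL-11+ libraries. IL-11+ libraries 1 and 2 were above all others while library 3 lay within the IL-11- range, at 37.5 ± 9.88 against 56.5 ± 14.1 CPM. The log2 fold change was 0.59 (95% interval 0.06 to 1.12, adjusted p = 0.137, edgeR), so *Hoxa11* was not called. Within each pair of same-numbered libraries the IL-11+ library was the higher. With the replicate block *Hoxa11* was at 0.58 (adjusted p = 0.0508, edgeR), again not called. Without IL-11+ library 3, its lowest IL-11+ library, its log2 fold change was 0.79 (adjusted p = 0.0433, edgeR), still short of 2-fold. Without IL-11- library 3 it was 0.39 (adjusted p = 0.387, edgeR). As a share of the tags of *Hoxa11* and *Hoxd11* together, *Hoxa11* made up 53.2, 68.9 and 47.2% in the IL-11- libraries and 81.6, 83.3 and 74.1% in the IL-11+ libraries. The shares did not overlap, so that group 11 kept a similar sum while its balance between clusters A and D differed.

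Group 10 was in part alike. *Hoxa10*, required in the uterus and in patterning of the lumbar spine, gave 26, 24 and 22 tags in the IL-11- libraries and 31, 28 and 26 tags in the IL-11+ libraries. *Hoxd10*, which acts in the hindlimb and lumbar spinal cord, gave 21, 17 and 21 tags against 6, 10 and 13 tags. *Hoxc10*, its cluster C paralogue, gave 31, 19 and 7 tags against 3, 12 and 5 tags. On the CPM scale *Hoxa10* was higher and *Hoxd10* lower in all IL-11+ libraries, while *Hoxc10* overlapped because of its wide spread, from 7 to 31 tags, among the IL-11- libraries. The log2 fold change was 0.40 (95% interval −0.19 to 0.98) for *Hoxa10*, −0.86 (−1.63 to −0.09) for *Hoxd10* and −1.36 (−2.52 to −0.20) for *Hoxc10*, and none was called (adjusted p = 0.403, 0.132 and 0.115 by edgeR).

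*Hoxc10* was called lower once the replicate number was used as a block (log2 fold change −1.31, adjusted p = 0.0388, edgeR), which made 4 HOX genes lower, where 648 of 9334 genes (6.94%) were. It was also called without a filter (adjusted p = 0.0310, edgeR) and without IL-11- library 3, its lowest IL-11- library (−1.80, adjusted p = 0.0154, edgeR). It was at −0.77 (adjusted p = 0.503) without IL-11- library 1, −1.03 (0.314) without IL-11+ library 1 and −2.08 (0.0558) without IL-11+ library 2, so its size depends on single libraries. *Hoxa10* made up 55.3, 58.5 and 51.2% of the tags of *Hoxa10* and *Hoxd10* in the IL-11- libraries and 83.8, 73.7 and 66.7% in the IL-11+ libraries. These shares did not overlap between the populations. Its share of the tags of *Hoxa10* and *Hoxc10* did overlap, at 45.6, 55.8 and 75.9% against 91.2, 70.0 and 83.9%. Within each pair of same-numbered libraries that share was nevertheless higher in IL-11+ cells.

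*Hoxd13*, the terminal gene of cluster D and a hindgut, urogenital and digit gene, varied more by library number than by EGFP. It gave 5, 9 and 31 tags in the IL-11- libraries and 7, 10 and 36 tags in the IL-11+ libraries. Library 3 was the highest of both populations and libraries 1 and 2 were low in both, so the groups overlapped. The log2 fold change was 0.40 (95% interval −0.76 to 1.56, adjusted p = 0.704, edgeR). Without IL-11+ library 3 the log2 fold change was −0.59 and without IL-11- library 3 it was 1.39, each of these removals breaking up the pair of library 3. Within each pair of same-numbered libraries the IL-11+ library was the higher, at 4.66 and 7.28, 8.29 and 9.97, and 24.9 and 33.7 CPM. With the replicate block the log2 fold change was 0.42 (adjusted p = 0.502, edgeR), so it was not called. Its cluster A paralogue *Hoxa13* gave 1, 2 and 4 tags against 5, 6 and 2 tags and did not share the library 3 maximum in IL-11+ cells. *Evx2*, the homeobox gene next to *Hoxd13*, gave 0, 1 and 2 tags against 3, 6 and 10 tags, library 3 again being the highest of each population. Unlike *Hoxd13*, *Evx2* was also higher in every IL-11+ library than in any IL-11- library. It had too few tags for the filter, and without a filter it was called higher (log2 fold change 2.70, adjusted p = 0.0268, edgeR).

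The 2 further anterior genes tested belong to cluster B and act in the hindbrain. *Hoxb2* gave 19, 16 and 13 tags in the IL-11- libraries and 4, 5 and 20 tags in the IL-11+ libraries. *Hoxb3* gave 11, 19 and 13 tags against 4, 5 and 9 tags. IL-11+ libraries 1 and 2 were low for both genes, and library 3 was the highest IL-11+ library for both, lying above every IL-11- library on the CPM scale for *Hoxb2*. The log2 fold change was −0.58 (95% interval −1.59 to 0.43, adjusted p = 0.492, edgeR) for *Hoxb2* and −1.09 (−2.03 to −0.15, adjusted p = 0.117) for *Hoxb3*. Without IL-11+ library 3, *Hoxb2* was called lower (−1.61, adjusted p = 0.0410, edgeR), and without IL-11+ library 1 or 2 it was at −0.24 (0.820) or −0.28 (0.810). That library also had the highest smooth muscle sum, 359 CPM, and the highest interstitial cell sum, 49.6 CPM, of the IL-11+ libraries, and their part in its *Hoxb2* level was not tested.

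The remaining 24 members had too few tags to be tested, and 20 of them had a lower mean CPM in IL-11+ cells. In cluster A the untested genes had 0 to 10 tags in a library, and in cluster B, *Hoxb1*, *Hoxb5*, *Hoxb6*, *Hoxb7* and *Hoxb8* had 0 to 8. In cluster C, *Hoxc4*, *Hoxc5*, *Hoxc6*, *Hoxc8*, *Hoxc9*, *Hoxc11* and *Hoxc13* had 0 to 7 tags, and in cluster D, *Hoxd3*, *Hoxd4*, *Hoxd8*, *Hoxd9* and *Hoxd12* had 0 to 18. At this depth differences in most of these genes were not detectable one by one.

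In 11 of the 34 members all IL-11+ libraries lay below all IL-11- libraries, where 10.9% of the 20327 genes did. These were 5 of the 10 tested genes (*Hoxa9*, *Hoxb3*, *Hoxb4*, *Hoxd10* and *Hoxd11*), where 16.2% of the 9334 genes tested did, and 6 of the 24 others. For *Hoxa9*, *Hoxb3* and *Hoxb4* the filter itself fixed the direction, so 5 of 10 is not to be read against that share. Among the 6, *Hoxa7* gave 10, 6 and 10 tags against 2, 4 and 4 tags, and *Hoxc6* gave 6, 2 and 7 tags against 1, 0 and 1 tags. *Hoxd3* gave 7, 3 and 4 tags against 0, 0 and 2 tags, and *Hoxd4* gave 6, 4 and 4 tags against 0, 1 and 1 tags. *Hoxb6*, with 7, 2 and 5 tags against 1, 1 and 1 tags, and *Hoxa2*, with only 1, 2 and 1 tags against 0, 0 and 0 tags, completed the 6. These are anterior and middle genes of all 4 clusters. *Hoxd8* overlapped, at 18, 8 and 5 tags against 4, 7 and 13 tags, with IL-11+ library 3 the highest of its group as for *Hoxb2*. *Hoxd9* overlapped too, at 8, 18 and 11 tags against 8, 3 and 3 tags.

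The order of HOX levels was led by posterior genes in both populations. In IL-11- cells *Hoxa11* (37.5 ± 9.88 CPM) and *Hoxd11* (28.4 ± 6.44 CPM) came first and differed by less than their spread, followed by *Hoxa10* at 21.3 ± 3.37 CPM and *Hoxb4* at 18.5 ± 5.76 CPM. In IL-11+ cells *Hoxa11* came first at 56.5 ± 14.1 CPM and stood apart from *Hoxa10* at 28.2 ± 3.97 CPM, followed by *Hoxd13* at 17.0 ± 14.5 CPM and *Hoxd11* at 13.9 ± 0.819 CPM. The place of *Hoxd13* there rests on library 3, with 7.28, 9.97 and 33.7 CPM. *Hoxb4* took place 4 in IL-11- cells and place 12 in IL-11+ cells. Each tag marks the 5′ end of a transcript, so tag counts need no division by length. For comparison only, levels are also given per kilobase of the longest annotated coding transcript, 1111 bases for *Hoxd11* and 2287 for *Hoxa11*. On that scale *Hoxd11* led in IL-11- cells with 25.6 CPM per kilobase ahead of *Hoxa11* with 16.4, and *Hoxa11* led in IL-11+ cells with 24.7 ahead of *Hoxd11* with 12.5.

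Of the 12 other genes named for the HOX clusters or their borders, 1 was tested. The antisense transcript *Hoxa11os* overlaps *Hoxa11* on the opposite strand and gave 12, 8 and 17 tags in the IL-11- libraries and 21, 15 and 13 tags in the IL-11+ libraries. The groups overlapped, and the log2 fold change was 0.57 (95% interval −0.22 to 1.37, adjusted p = 0.372, edgeR). Counting by the authors used 1 read orientation, so the pair could be told apart. Apart from *Evx2*, the others (*Hotairm1*, *Hotairm2*, *Hoxaas2*, *Hoxb3os*, *Hoxb5os*, *Evx1*, *Hottip*, *Hotair*, *Mir196b* and *Haglr*) had at most 3 tags in a library. In the first 300 bases of GENCODE transcripts, 6 of the 34 HOX genes shared a window of 50 bases with another gene. These were *Hoxa3*, *Hoxa9* (36 of 1214 windows, with *Mir196b*), *Hoxb6*, *Hoxc5* (with *Hoxc10*), *Hoxd3* and *Hoxd4* (with each other), and the split of tags between *Hoxd3* and *Hoxd4* is uncertain.

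The promoters of the 3 genes called lower are printed because these are the HOX genes called in the fit without the replicate block. RefSeq promoters (GRCm38, 300 bases around the start) were at hand for 21 of the 34 HOX genes, 23 windows in all. They were searched on both strands for TTTATG (a CDX motif), TGATNNAT (a joint motif of PBX and HOX proteins), TGACAG (MEIS), AGGTCA (a hexamer found in retinoid receptor elements) and TATAAA (the TATA box). Matches are in capitals and the rest in lower case, each window on the gene's own strand.
Hoxb4 chr11:96318017-96318316 plus strand: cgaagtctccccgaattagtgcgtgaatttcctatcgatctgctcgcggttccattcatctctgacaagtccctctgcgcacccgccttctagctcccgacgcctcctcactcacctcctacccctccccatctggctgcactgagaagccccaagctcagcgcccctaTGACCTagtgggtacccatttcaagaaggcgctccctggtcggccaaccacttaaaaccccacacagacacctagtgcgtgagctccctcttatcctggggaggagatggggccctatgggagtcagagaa
Hoxa9 chr6:52227321-52227620 minus strand: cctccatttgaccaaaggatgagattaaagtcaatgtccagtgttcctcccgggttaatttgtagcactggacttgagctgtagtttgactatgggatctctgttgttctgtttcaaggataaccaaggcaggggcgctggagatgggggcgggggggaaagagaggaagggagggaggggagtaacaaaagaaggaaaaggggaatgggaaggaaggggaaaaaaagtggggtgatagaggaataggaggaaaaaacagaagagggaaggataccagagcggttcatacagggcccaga
Hoxd11 first start chr2:74679308-74679607 plus strand: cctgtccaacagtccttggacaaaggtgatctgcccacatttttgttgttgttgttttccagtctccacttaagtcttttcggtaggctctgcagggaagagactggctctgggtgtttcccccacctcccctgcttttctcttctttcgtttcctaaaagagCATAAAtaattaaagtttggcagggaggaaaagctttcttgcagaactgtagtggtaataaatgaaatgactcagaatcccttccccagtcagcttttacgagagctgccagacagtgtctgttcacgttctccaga
Hoxd11 second start chr2:74682073-74682372 plus strand: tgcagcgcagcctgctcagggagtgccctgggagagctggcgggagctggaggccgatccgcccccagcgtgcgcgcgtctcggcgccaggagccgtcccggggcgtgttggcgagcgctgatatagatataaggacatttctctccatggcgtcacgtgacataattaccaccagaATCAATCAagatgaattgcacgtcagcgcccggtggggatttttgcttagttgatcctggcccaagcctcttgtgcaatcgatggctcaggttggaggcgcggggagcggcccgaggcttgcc
The window of *Hoxb4* held 1 AGGTCA hexamer on the reverse strand, that of *Hoxa9* held none of the 5 motifs, and those of *Hoxd11* held 1 CDX motif and 1 joint PBX and HOX motif, both on the reverse strand. The second *Hoxd11* window is the one at the start of the annotated coding transcript. Of all 32851 promoters in the table, 11.9% held the CDX motif, 8.85% the joint motif, 19.2% the MEIS motif, 16.3% the AGGTCA hexamer and 13.6% the TATA box. Of the 23 HOX windows, 5, 4, 2, 7 and 4 held them in the same order. A match is only a string of letters in the window.

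TALE homeodomain proteins bind DNA together with HOX proteins, and 8 of 9 listed genes were tested. None was called by edgeR or DESeq2, and the median log2 fold change was 0.17. At an unadjusted p under 0.05 (edgeR), 1135 of all 9334 genes tested were higher and 1355 lower. In this list 0 were higher and 3 lower at that p. Of these 3, *Pbx3* passed the filter through the IL-11- libraries alone and so could only have been lower. *Meis1*, a TALE factor of limb and blood development, gave 87, 71 and 100 tags in the IL-11- libraries and 31, 59 and 28 tags in the IL-11+ libraries. All IL-11+ libraries were lower, and the log2 fold change, −0.96 (SE 0.253, adjusted p = 0.0130, edgeR), missed the 2-fold threshold. Without IL-11- library 2 or IL-11+ library 2, *Meis1* passed the 2-fold threshold (−1.04, adjusted p = 0.0273, and −1.37, adjusted p = 0.00158, edgeR). It also passed with library totals only (−1.04, adjusted p = 0.00945, edgeR). With at least 10 tags in all 6 libraries it passed narrowly (−1, adjusted p = 0.0101, edgeR). Without IL-11+ library 1 or 3 its adjusted p was 0.0624 or 0.0617 (edgeR). *Meis2* was at 124 ± 13.8 against 151 ± 50.5 CPM (log2 fold change 0.28, 95% interval −0.15 to 0.72).

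Of 8 listed upstream inputs, which set HOX expression in the embryo, 4 were tested and none was called by edgeR or DESeq2. At an unadjusted p under 0.05 (edgeR), 0 were higher and 1 lower, where 1135 and 1355 of all 9334 genes tested were. The median log2 fold change was −0.30. *Zbtb16*, a zinc finger repressor of limb and axial patterning, gave 605, 410 and 228 tags against 258, 232 and 157 tags. Library 3 was the lowest and library 1 the highest of each population, and the groups overlapped (log2 fold change −0.80, 95% interval −1.42 to −0.19, adjusted p = 0.0738, edgeR). Without IL-11- library 3, *Zbtb16* was called lower (−1.14, adjusted p = 0.00203, edgeR), and without IL-11- library 1 it was at −0.38 (adjusted p = 0.454). With the replicate block it was at −0.72 (adjusted p = 0.00025, edgeR), short of 2-fold. The retinoic acid receptor *Rarg* was at 26.4 ± 5.60 against 37.6 ± 7.15 CPM (log2 fold change 0.51, 95% interval −0.04 to 1.06), and the axial growth factor *Gdf11* at 25.5 ± 2.16 against 22.3 ± 4.29 CPM (−0.20, −0.78 to 0.39). *Cdx1*, an intestinal epithelial HOX regulator, had 1 tag in all 6 libraries together.

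Polycomb proteins keep HOX genes silent, and of 26 listed genes 20 were tested, 3 fell and none rose, where 6.37% of all genes tested fell and 3.44% rose. By adjusted p alone, 1 member was higher, where 638 of all 9334 genes tested were. The median log2 fold change was −0.08, and DESeq2 called 1. At an unadjusted p under 0.05 (edgeR), 2 were higher and 4 lower, where 1135 and 1355 of all 9334 genes tested were. *Ezh1*, a histone H3K27 methyltransferase, gave 53, 45 and 51 tags in the IL-11- libraries and 18, 21 and 20 tags in the IL-11+ libraries. The groups did not overlap, the log2 fold change was −1.17 (SE 0.250, adjusted p = 0.00270, edgeR), and the call was kept without each library in turn. *Ezh2*, the second H3K27 methyltransferase, gave 23, 14 and 24 tags against 6, 9 and 6 tags (−1.36, SE 0.394, adjusted p = 0.0236, edgeR), and it passed the filter through the IL-11- libraries alone and so could only have been lower. *Cbx7*, a reader of that mark, gave 30, 31 and 32 tags against 11, 8 and 20 tags (−1.09, SE 0.328, adjusted p = 0.0286, edgeR). Neither overlapped between groups. The call of *Ezh2* was lost without IL-11- library 1 or 3 or IL-11+ library 1 or 3 (adjusted p 0.0653 to 0.0997, edgeR), and that of *Cbx7* without IL-11- library 1 or 2 or IL-11+ library 1 or 2 (0.0758 to 0.142). The 3 most abundant members were not called: *Cbx6* at 137 ± 13.9 against 102 ± 14.3 CPM (95% interval of the log2 fold change −0.80 to −0.07), *Rbbp7* at 127 ± 13.8 against 107 ± 4.25 CPM (−0.61 to 0.09) and *Rbbp4* at 75.4 ± 5.03 against 75.5 ± 9.96 CPM (−0.38 to 0.38).

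Trithorax proteins and H3K27 demethylases act opposite to Polycomb. All 12 listed genes were tested and none was called by edgeR or DESeq2, with a median log2 fold change of −0.08. At an unadjusted p under 0.05 (edgeR), 0 were higher and 2 lower, where 1135 and 1355 of all 9334 genes tested were. *Kmt2a*, the H3K4 methyltransferase that maintains HOX expression, was at 267 ± 16.9 against 308 ± 49.1 CPM (log2 fold change 0.20, 95% interval −0.16 to 0.55). The demethylase *Kdm6b* was at 264 ± 28.7 against 201 ± 20.2 CPM (−0.40, −0.75 to −0.05) and the methyltransferase *Ash1l* at 200 ± 18.7 against 187 ± 8.80 CPM (−0.10, −0.44 to 0.23). Among CTCF and cohesin genes, which fold the clusters, all 7 were tested and 0 were called by edgeR or DESeq2, none having an unadjusted p under 0.05. Their median log2 fold change was 0.00. *Nipbl*, which loads cohesin, was at 241 ± 25.5 against 242 ± 47.8 CPM (95% interval −0.37 to 0.38), and the subunit *Stag2* at 241 ± 15.9 against 234 ± 33.6 CPM (−0.40 to 0.30). The subunit *Smc1a* was at 166 ± 22.2 against 129 ± 24.6 CPM (−0.75 to 0.01).

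Other transcription factors of regional mesenchyme changed in both directions. Of 29 listed genes 13 were tested, 2 rose and 2 fell, where 3.44% of all genes tested rose and 6.37% fell, with a median log2 fold change of 0.12. Without a filter, 2 further members were called higher by edgeR, where 427 genes in all were called higher. Of the 24 members with tags, all IL-11+ libraries lay above all IL-11- libraries for 6 and below them for 2. Over all 20327 genes this held for 1899 and 2217. *Isl1*, a homeodomain factor of foregut and limb mesenchyme, gave 21, 11 and 33 tags in the IL-11- libraries and 34, 35 and 58 tags in the IL-11+ libraries (log2 fold change 1.13, SE 0.315, adjusted p = 0.0192, edgeR). *Nr2f1*, an orphan nuclear receptor, gave 17, 10 and 20 tags against 19, 23 and 49 tags (1.10, SE 0.360, adjusted p = 0.0454, edgeR). On the CPM scale neither overlapped, and IL-11+ library 3 was the highest library for both genes. Without that library neither was called (*Isl1* 0.88, adjusted p = 0.106, and *Nr2f1* 0.62, adjusted p = 0.319, edgeR). *Isl1* was also not called without IL-11- library 2 (0.84, adjusted p = 0.103), or without IL-11- library 1 once genes were filtered again (adjusted p = 0.0535, edgeR). *Nr2f1* was also not called without IL-11- library 1, 2 or 3 (adjusted p 0.0769, 0.180 and 0.0599, edgeR), and DESeq2 gave it an adjusted p of 0.0840.

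*Osr1*, a zinc finger factor of fibroblast progenitors, gave 51, 50 and 67 tags in the IL-11- libraries and 24, 28 and 21 tags in the IL-11+ libraries. Its IL-11+ libraries were all lower (log2 fold change −1.03, SE 0.240, adjusted p = 0.00548, edgeR), and without IL-11- library 3 (−0.96) or IL-11+ library 3 (−0.90) it was short of 2-fold. Without a filter *Osr1* was also just short of 2-fold (−0.99, adjusted p = 0.00424, edgeR). *Hand1*, a basic helix-loop-helix factor of gut and heart mesenchyme, gave 12, 10 and 10 tags against 0, 0 and 1 tags. With 32 tags against 1, the ratio of IL-11+ to IL-11- was 0.0351 with an exact 95% counting interval of 0.000862 to 0.210, and the adjusted p was 0.000743 (edgeR). *Hand1* passed the filter through the IL-11- libraries alone and so could only have been lower. It was also called lower without a filter (adjusted p = 6.64e-05, edgeR). In the IL-11- libraries the smooth muscle and interstitial cell sums were also high, and their part in the *Hand1* difference was not tested.

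The 3 most abundant regional factors were not called. *Pitx1*, a hindlimb and hindgut factor, gave 49, 75 and 81 tags in the IL-11- libraries and 121, 93 and 118 tags in the IL-11+ libraries. All IL-11+ libraries were higher, with a log2 fold change of 0.86 (95% interval 0.44 to 1.28, adjusted p = 0.00501, edgeR), below 2-fold. *Nkx2-3*, a midgut and hindgut mesenchyme factor, was at 70.8 ± 11.4 against 94.7 ± 6.11 CPM (log2 fold change 0.41, 0.03 to 0.79), and *Nr2f2* at 77.3 ± 13.1 against 86.5 ± 4.57 CPM (0.16, −0.23 to 0.54).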

How the data were processed

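Per the study's methods, the authors trimmed reads of 5′ tag libraries with cutadapt 1.18, aligned them to mouse RNA of build mm10 with Bowtie2 2.2.5 in 1 orientation and deposited tag counts per gene symbol; their treatment of tags that match several genes was not given in the sources used here. A gene was tested when 3 or more of the 6 libraries (n = 3 mice in the study’s methods) held 10 or more of its tags, with edgeR 4.0.16 in R 4.3.3 (TMM, quasi-likelihood test, IL-11+ against IL-11-, Benjamini-Hochberg adjustment over 9334 genes) and called at an adjusted p under 0.05 and a fold over 2. DESeq2 1.42.0, other scalings and filters, a replicate block and leaving out each library were alternatives. The main fit, its intervals and the fits without 1 library did not use the pairing described below. Leaving out 1 library also breaks its pair. Intervals of fold changes are 95% intervals; intervals and floors from tags cover counting error only. The labels number the libraries 1 to 3 in each group: deviations from group means correlated at 0.23, 0.19 and 0.27 between same-numbered libraries over 5063 genes, so the numbers were taken to pair libraries; this pairing comes from the values, and whether a pair is 1 mouse was not given in the sources used here. Replicates differed by more than sampling noise (chi-square per degree of freedom 2.56 to 6.11). Scripts were tested on simulated data. Members and lists were chosen with earlier results of these data known. Named were HOX genes, the called and up to 3 most abundant members of each list, *Il11*, and of each marker list the most abundant gene and defining markers at 0, but some genes are not reported here; further genes were singled out after their values were seen. Coordinates and lengths are from GENCODE vM21 (GRCm38) and promoters from RefSeq (GRCm38).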

Additional observations from a re-analysis of the deposited data

How the results depend on the processing

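No HOX gene was called higher under any alternative. The count of HOX genes called lower, 3 of 10 tested, was 3 with RLE factors, iterative TMM, library totals only or adjusted p alone, 4 with the replicate block, 2 with no filter (*Hoxb4* and *Hoxc10*, without *Hoxa9* at an adjusted p of 0.0608 and *Hoxd11* short of 2-fold) or with at least 10 tags in 1 library (*Hoxb4* and *Hoxd11*), and 1 with DESeq2 or with at least 10 tags in all 6 libraries, where fewer genes enter. Leaving out 1 library gave 0 to 3; genes filtered again without an IL-11- library no longer included *Hoxb4* and *Hoxa9*, so the same removals were added, after seeing the data, on the genes of the filter over 6 libraries. Leaving out 1 library gave 251 to 329 genes called higher and 341 to 580 called lower over all genes. Over all genes, 638 were called higher by adjusted p alone and 256 lower with at least 10 tags in all 6 libraries, against 321 and 595. With no filter, 427 were called higher and 767 lower. Among the 7 lists of partners, regulators and regional factors, 65 members were tested. Of these, 2 were called higher and 5 lower, where 3.44% and 6.37% of all genes tested were. The count called higher was 1 with library totals only or DESeq2, 5 with no filter, 4 by adjusted p alone and 0 to 2 without 1 library. The count called lower was 3 with DESeq2 or at least 10 tags in all 6 libraries and 2 to 6 without 1 library. The replicate block gave 337 genes higher and 648 lower and, among the genes named, changed no call but that of *Hoxc10*. The log2 fold change of *Hoxd13* ranged from −0.59 to 1.39 without 1 library, that of *Meis2* from −0.03 to 0.43, of *Nipbl* from −0.12 to 0.16, of *Rbbp4* from −0.12 to 0.06 and of *Stag2* from −0.14 to 0.07, and none of these was called. *Nipbl* was at −0.01 with iterative TMM or the block, −0.08 with library totals only and −0.04 with at least 10 tags in all 6 libraries; *Rbbp4* was at 0.01 with RLE factors, DESeq2 or at least 10 tags in 1 library and 0.04 with no filter. Log2 ratios of the 4 cluster sums kept their direction under each scaling and without each library, from 0.08 to 0.34 for A, −1.74 to −1.11 for B, −1.90 to −1.23 for C and −1.01 to −0.51 for D. The causes of these changes were not tested. The totals of 1022851 to 1169817 tags per library left 24 of 34 HOX genes untested, and 3 libraries per group limit each call.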
